A study of Mus musculus with 8 samples.

Results

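Chemokine ligand and receptor genes were the 45 genes, of 16650 measured in whole liver, whose symbols begin with *Ccl*, *Cxcl*, *Cx3cl*, *Xcl*, *Ccr*, *Cxcr*, *Cx3cr*, *Xcr* or *Ackr* followed by a digit. They comprised 24 ligands and 21 receptors, 4 of the receptors atypical. Liver RNA from 4 *L2aKO* mice was compared with that from 4 *2afl/fl* mice, 1 library per liver. The *L2aKO* mice carry floxed *Mfsd2a* alleles together with an *Alb-Cre* transgene, whose albumin promoter is active in hepatocytes, and the *2afl/fl* mice carry the floxed alleles without that recombinase. *Mfsd2a* encodes a transporter of lysophosphatidylcholine, and all 8 mice, male by the study's general statement, started a NASH diet and fructose water when 8 weeks old. The livers were perfused and taken 2 weeks later, in 10-week-old mice, at zeitgeber time 4. The labels number the livers but name no litter or batch, so p-values measure the spread between these livers.

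Chemokines are small secreted proteins that bind sulfated sugars on cell surfaces and draw leukocytes along their gradient. Most are sensed by receptors of the rhodopsin family that signal through inhibitory G proteins, while the atypical receptors bind ligands without that signal, most of them taking the ligands up for degradation. In a liver under dietary stress, hepatocytes, sinusoidal endothelium, stellate cells and Kupffer cells secrete ligands, and the receptors are carried largely by the leukocytes that answer, so both sides of the system can be read in whole-liver RNA. From such RNA, however, more cells of a type and more transcript per cell cannot be told apart.

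Values are the authors' normalized reads, that is, reads per gene divided by a factor for each library. Depth, estimated from the value of a single read in each library, was 28.3M to 37.2M reads in *L2aKO* and 27.5M to 30.2M in *2afl/fl* livers. A gene is called when its unadjusted p is under 0.05 by limma, a linear model with variances moderated across all genes, and its log2 fold change is at least 0.32 in size, the fold limit of the study. All fold changes are *L2aKO* over *2afl/fl* on log2 of the value plus 1, which understates the change of low genes, and SD and SE are over n = 4 livers per genotype. The hepatocyte list was present in every liver, its 10 genes summing to 2123000 to 2361000 normalized reads in *L2aKO* and 1929000 to 2233000 in *2afl/fl* livers. The targeted transcript went against the labels. *Mfsd2a* had 915, 721, 1422 and 1974 normalized reads in the livers labelled *L2aKO*, against 467, 1569, 300 and 513 in *2afl/fl* livers, and its log2 fold change was 1.01 (SE 0.59, limma p = 0.137, exact permutation p = 0.171). The value covers the whole gene, exons outside the floxed part included. The direction of every change below therefore rests on the labels, and *L2aKO* stands for livers so labelled.

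Start-site sequences from RefSeq (GRCm38.p6, 250 bases before to 50 after the start) were matched by symbol for 33 of the 45 genes, 16 of them ligands. Those of 3 ligands are shown: *Cxcl13*, a called gene (chr5:95956689-95956988, plus strand), *Cxcl12*, by far the highest ligand in these livers (chr6:117168285-117168584, plus strand), and *Cxcl10*, an interferon-induced ligand that was not called (chr5:92348840-92349139, minus strand). Capitals mark matches on either strand to a TATA box (TATAAA), an AP-1 motif (TGANTCA), a core motif of interferon regulatory factors (AANNGAAA) or the NF-κB consensus.

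Cxcl13: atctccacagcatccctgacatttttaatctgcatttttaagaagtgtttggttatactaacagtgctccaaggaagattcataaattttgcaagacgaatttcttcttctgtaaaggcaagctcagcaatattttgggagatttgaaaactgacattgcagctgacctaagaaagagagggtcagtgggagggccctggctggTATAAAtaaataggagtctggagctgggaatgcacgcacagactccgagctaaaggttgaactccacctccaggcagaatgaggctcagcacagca
Cxcl12: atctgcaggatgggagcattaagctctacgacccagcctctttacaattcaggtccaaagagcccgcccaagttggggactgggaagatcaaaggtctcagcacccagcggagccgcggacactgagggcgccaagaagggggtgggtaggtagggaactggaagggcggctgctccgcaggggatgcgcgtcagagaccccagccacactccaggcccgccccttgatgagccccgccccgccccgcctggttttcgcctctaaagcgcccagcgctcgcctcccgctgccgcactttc
Cxcl10: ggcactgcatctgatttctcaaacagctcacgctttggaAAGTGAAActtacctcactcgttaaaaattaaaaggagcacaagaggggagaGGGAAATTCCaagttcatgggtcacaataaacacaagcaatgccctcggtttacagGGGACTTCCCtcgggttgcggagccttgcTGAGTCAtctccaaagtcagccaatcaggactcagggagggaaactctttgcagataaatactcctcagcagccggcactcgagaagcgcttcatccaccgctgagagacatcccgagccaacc

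The *Cxcl13* sequence held TATAAA 46 bases before its start and none of the other 3 motifs. The *Cxcl12* sequence, rich in G and C, held none of the 4. The *Cxcl10* sequence held AANNGAAA 211, the NF-κB consensus 159 and 103, and TGANTCA 74 bases before the start, with no overlap between them. Among the 33 genes with a sequence, 10 held TATAAA, 8 TGANTCA, 8 AANNGAAA and 8 the NF-κB consensus. Over the 27025 genes of the table the shares were 15.7% for TATAAA, 8.97% for TGANTCA, 26.7% for AANNGAAA and 5.14% for the NF-κB consensus. The 8 genes with the NF-κB consensus were the ligands *Ccl9*, *Ccl27a*, *Cxcl1*, *Cxcl2* and *Cxcl10* and the receptors *Ackr2*, *Ccr3* and *Ccr6*, and in *Ackr2*, *Ccr6*, *Cxcl1* and *Cxcl2* matches on the opposite strands overlapped. A match is a run of letters and not a shown binding site.

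Of the 45 genes, 4 were called and all 4 were higher in *L2aKO* livers. They were the ligands *Ccl2* and *Cxcl13* and the receptors *Ccr7* and *Cxcr5*. Over all 16650 genes 349 were called (2.10%), of which 219 were higher (1.32%) and 130 lower (0.781%). Only *Cxcr5* had genotypes that did not overlap among the 45, whereas 375 genes did not overlap overall (2.25%), 187 of them higher (1.12%). By limma no gene of the 45 had an adjusted p under 0.05, and none did among all genes (0%), the smallest adjusted p being 0.9997 among the 45 and 0.164 among all. At an unadjusted p under 0.05 the counts were 4 of 45 and 581 of 16650 (3.49%). The median log2 fold change was 0.03 over the 45 genes and 0.00 over all genes, and 26 of the 45 were above 0, against 50.1% of all genes.

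Low expression set the scale of these calls. Of the 45 genes 15 had a mean under 10 normalized reads, and 3 of the 4 calls (*Ccl2*, *Ccr7* and *Cxcr5*) were among them. Over all genes with such a mean, 110 of 2438 were called. Above that mean, 1 of 30 genes was called, *Cxcl13*, against 239 of 14212 over all genes. The number of the 45 genes called ranged from 0 to 4 when each liver in turn was left out, and it was 0 without *L2aKO* replicate 1.

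**Figure D1:**
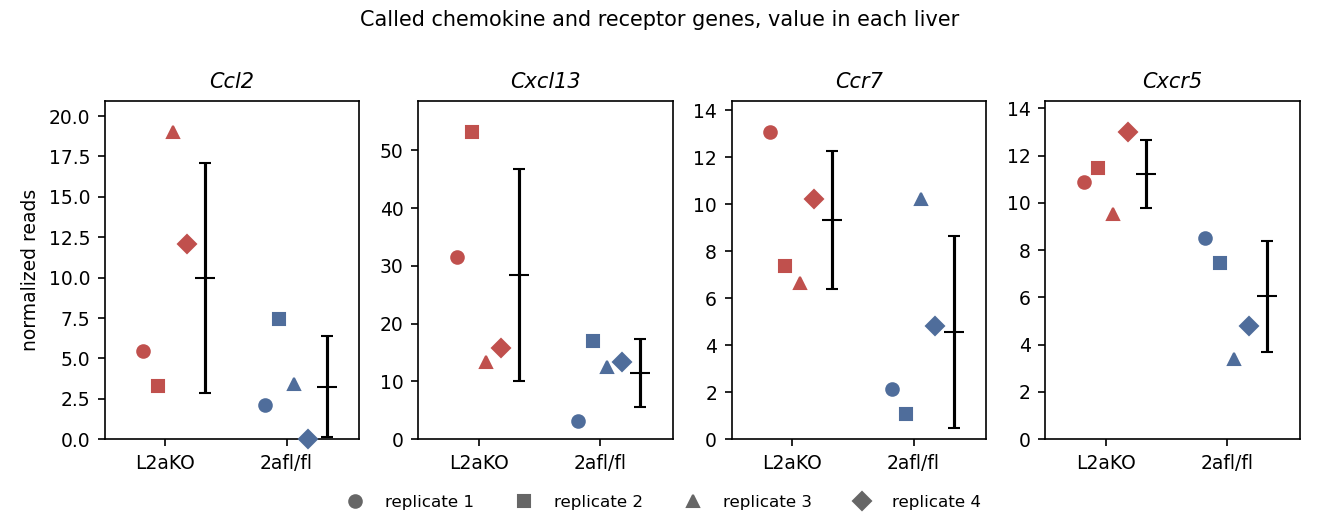
Normalized reads (y axis, from 0) of the 4 called genes in each liver, *L2aKO* in red left of *2afl/fl* in blue, with a marker shape for each replicate number and the mean ± SD (n = 4) in black. *Cxcr5* is the gene whose genotypes are apart, with 9.51 as the lowest *L2aKO* value and 8.51 as the highest *2afl/fl* value.

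Ligands and receptors were set side by side. Among ligands 2 of 24 were called and the median log2 fold change was 0.02 (range -1.05 to 1.49). Among receptors 2 of 21 were called with a median of 0.05 (range -0.48 to 1.21). Over all genes 2.10% were called, and 110 of 2438 among those with a mean under 10 normalized reads. The ligand median was below 0 under quantile normalization, with library weights and without *L2aKO* replicate 3 or *2afl/fl* replicate 3, and the difference between ligands and receptors was not tested. Without *Cxcl12*, the other 23 ligands summed to 2167 ± 265 normalized reads in *L2aKO* and 2028 ± 166 in *2afl/fl* livers, and the 21 receptors summed to 1647 ± 171 and 1672 ± 46.9 (mean ± SD, n = 4, *L2aKO* first). Both sums differed by less than 1 SD of the *L2aKO* livers.

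**Figure D2:**
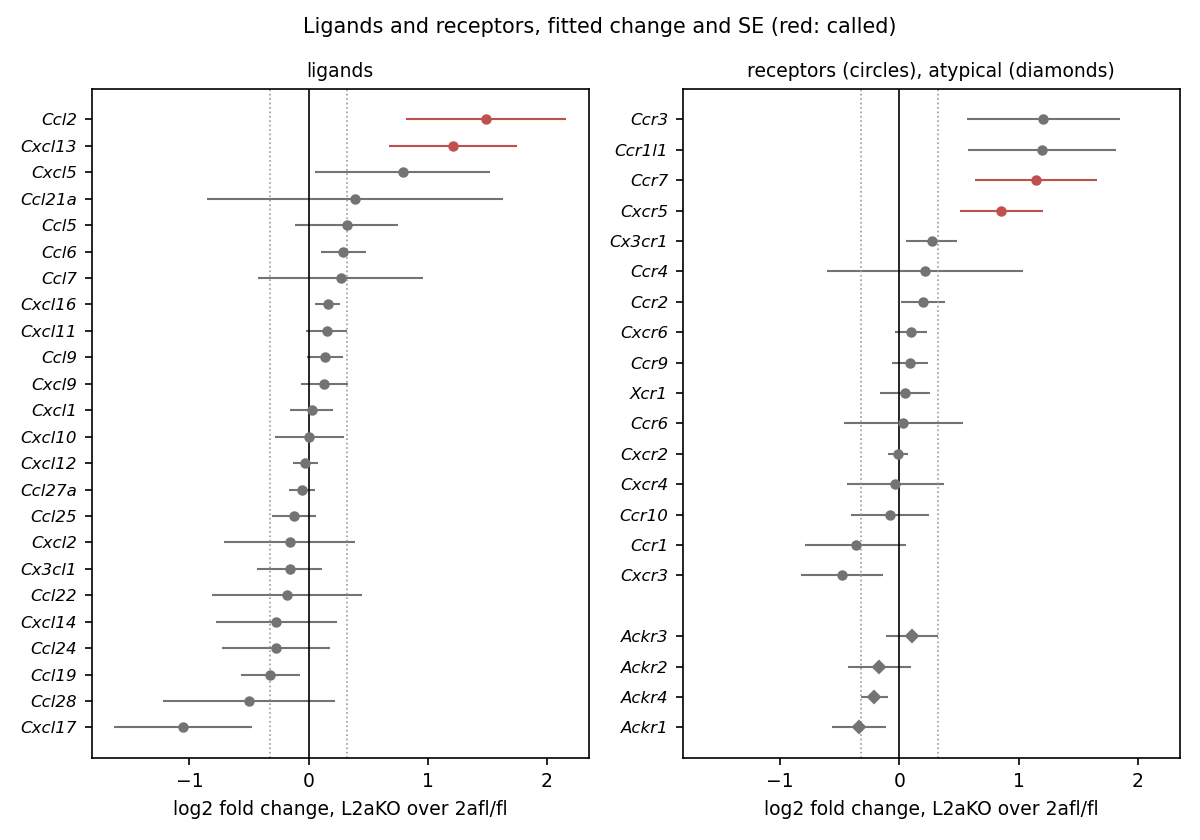
Fitted log2 fold change with its SE for 24 ligands (left) and 20 of the 21 receptors (right, atypical receptors as diamonds), called genes in red, dotted lines at the fold limit of 0.32 on the log2 scale in either direction. The abundant genes sit near 0 with short bars, and the 4 called genes are between 0.85 and 1.49 with SE of 0.35 to 0.67.

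Monocyte and macrophage attractants were led by *Ccl2* (chr11:82035577-82037452, plus strand of mm10), whose product calls CCR2-bearing monocytes out of the bone marrow and into inflamed liver. *Ccl2* had 5.45, 3.28, 19.0 and 12.1 normalized reads in *L2aKO* livers, against 2.13, 7.45, 3.41 and 0 in *2afl/fl* livers, which correspond to 5, 4, 20 and 13 reads and to 2, 7, 3 and 0 reads. Replicates 3 and 4 of *L2aKO* stood above every *2afl/fl* liver, while replicates 1 and 2 lay within the *2afl/fl* range. The means were 9.96 ± 7.11 and 3.25 ± 3.14 and the log2 fold change 1.49 (SE 0.67, limma p = 0.0476, adjusted p = 0.9997, exact permutation p = 0.143). The call was kept without *L2aKO* replicate 2 or *2afl/fl* replicate 2 and lost without any other liver (0.92 to 1.94), and it was also lost with a pseudocount of 0.5, quantile normalization, plain eBayes, library weights, limma voom or the replicate block.

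The other 5 attractants of this group were not called, and 4 of them had fold changes above 0. *Ccl9*, made by macrophages and sensed by CCR1 in mice, was second only to *Cxcl12* among ligands, with 885, 1057, 1206 and 781 normalized reads in *L2aKO* and 877, 1046, 912 and 719 in *2afl/fl* livers. The genotypes overlapped throughout, and its log2 fold change was 0.14 (SE 0.15). Its neighbour *Ccl6*, also a CCR1 ligand, gave 0.29 (SE 0.19), *Ccl5*, the T cell product RANTES, 0.32 (SE 0.43), *Ccl7*, a second CCR2 ligand, 0.27 (SE 0.69), and *Cx3cl1*, the membrane-bound fractalkine, -0.16 (SE 0.27). Cell markers were read beside these ligands. All 14 markers of monocytes and recruited macrophages had fold changes above 0, and 5 were called (*C5ar1*, *Cd300lb*, *Clec4n*, *Lgals3* and *Ms4a6b*). Over all genes 50.1% were above 0 and 2.10% were called. The marker lists were chosen with earlier results of these data known, so these counts are not independent support. The 14 markers summed to 1655 to 2061 normalized reads in *L2aKO* and 1443 to 1693 in *2afl/fl* livers, with overlap. *Spp1* and *Cd9*, neither called, were the largest terms of that sum. Kupffer cell markers were above 0 in 10 of 10 with none called by limma (1 at an unadjusted p under 0.05), summing to 9541 to 11970 in *L2aKO* and 8261 to 10480 in *2afl/fl* livers. The part of either cell type in the *Ccl2* values was not tested.

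Lymphoid homing ligands held the second call. *Cxcl13* (chr5:95956939-95961068, plus strand) encodes the ligand that gathers B cells into follicles through CXCR5. It had 31.6, 53.2, 13.3 and 15.8 normalized reads in *L2aKO* livers, against 3.19, 17.0, 12.5 and 13.4 in *2afl/fl* livers. Replicates 1 and 2 of *L2aKO* were the high ones, a different pair from that of *Ccl2*, while replicates 3 and 4 lay within the *2afl/fl* range and *2afl/fl* replicate 1 was the low one. Means of 28.5 ± 18.4 and 11.5 ± 5.90 gave a log2 fold change of 1.21 (SE 0.54, limma p = 0.0459, adjusted p = 0.9997, exact permutation p = 0.171). The call held in 3 of 8 fits with 1 liver left out (0.75 to 1.49), being lost without *L2aKO* replicate 1 or 2 or *2afl/fl* replicate 1, 3 or 4, and it was lost under quantile normalization and plain eBayes.

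The other 6 ligands of the group were not called, and 5 of them had fold changes below 0. *Cxcl12*, which retains cells through CXCR4, dominated all ligands with 10831, 11372, 9426 and 9039 normalized reads in *L2aKO* and 8426, 10890, 10888 and 11287 in *2afl/fl* livers. It supplied 78.8 to 86.3% of the normalized reads of all ligands in each liver and did not separate the genotypes (-0.03, SE 0.10), *2afl/fl* replicate 1 having the lowest value. *Ccl27a*, a ligand of CCR10, had 291, 255, 312 and 327 in *L2aKO* and 273, 365, 291 and 305 in *2afl/fl* livers, with full overlap (-0.06, SE 0.11). *Ccl25*, the CCR9 ligand of gut homing, which shares 204 exon bases with *Elavl1* on the opposite strand, gave -0.12 (SE 0.18) and *Ccl28*, the mucosal CCR10 ligand, -0.50 (SE 0.72).

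The T cell zone ligands of CCR7 also failed the test. *Ccl19* had 25.1, 34.4, 40.9 and 50.2 normalized reads in *L2aKO* livers, against 45.7, 55.4, 32.9 and 52.7 in *2afl/fl* livers (-0.32, SE 0.25, exact permutation p = 0.257). *Ccl21a* had 16.1, 22.1, 0.109 and 26.0 in *L2aKO* and 16.3, 3.78, 1.14 and 21.8 in *2afl/fl* livers (0.39, SE 1.24). Its low values lay in livers of both genotypes. Mice carry near-identical copies of *Ccl21*, so the value is uncertain, and sharing of reads between copies was not tested.

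Neutrophil attractants did not separate the genotypes. *Cxcl1*, the keratinocyte chemoattractant of mice, had 125, 170, 147 and 152 normalized reads in *L2aKO* and 218, 117, 142 and 123 in *2afl/fl* livers. The highest and the lowest value were both *2afl/fl*, and the log2 fold change was 0.02 (SE 0.18). *Cxcl2* and *Cxcl5* had means under 3 normalized reads in both genotypes, with fold changes of -0.16 (SE 0.55) and 0.79 (SE 0.73).

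The interferon-induced ligands of CXCR3, which draw T and NK cells, were not called either. *Cxcl9* had 202, 123, 159 and 122 normalized reads in *L2aKO* and 178, 130, 143 and 99.7 in *2afl/fl* livers (0.13, SE 0.20). Values overlapped, replicate 1 being the highest of each genotype. *Cxcl10* gave 0.01 (SE 0.29) and *Cxcl11* 0.15 (SE 0.18). *Cxcl10* shares 132 exon bases with *Art3* on the opposite strand, and whether strand was used in counting is not given in the sources used here.

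The ligands left were small in number and uncalled. *Ccl24*, an eosinophil attractant, gave -0.27 (SE 0.45) and *Ccl22*, a CCR4 ligand of dendritic cells, -0.18 (SE 0.63). *Cxcl16*, a membrane-bound ligand that holds CXCR6-bearing T and NKT cells in the sinusoids, had 139, 144, 162 and 152 normalized reads in *L2aKO* livers, against 131, 136, 127 and 140 in *2afl/fl* livers. It is described because of these values, which overlapped only by *L2aKO* replicate 1 and *2afl/fl* replicate 4, with a log2 fold change of 0.16 (SE 0.11, limma p = 0.161, exact permutation p = 0.0571), and it shares 552 exon bases with *Zmynd15* on the opposite strand. *Cxcl14* gave -0.27 (SE 0.51).

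*Cxcl17*, a mucosal ligand, was the lowest fold change of all 45 at -1.05 (SE 0.58, limma p = 0.0918, exact permutation p = 0.171), and it too is described because of its values. It had 2.18, 1.64, 16.2 and 2.79 normalized reads in *L2aKO* livers, against 8.51, 13.8, 11.4 and 4.79 in *2afl/fl* livers. In *L2aKO*, 3 livers were below every *2afl/fl* liver and replicate 3 was above them all. Without that liver *Cxcl17* met the criterion, lower, at -1.66 (SE 0.45).

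**Figure D3:**
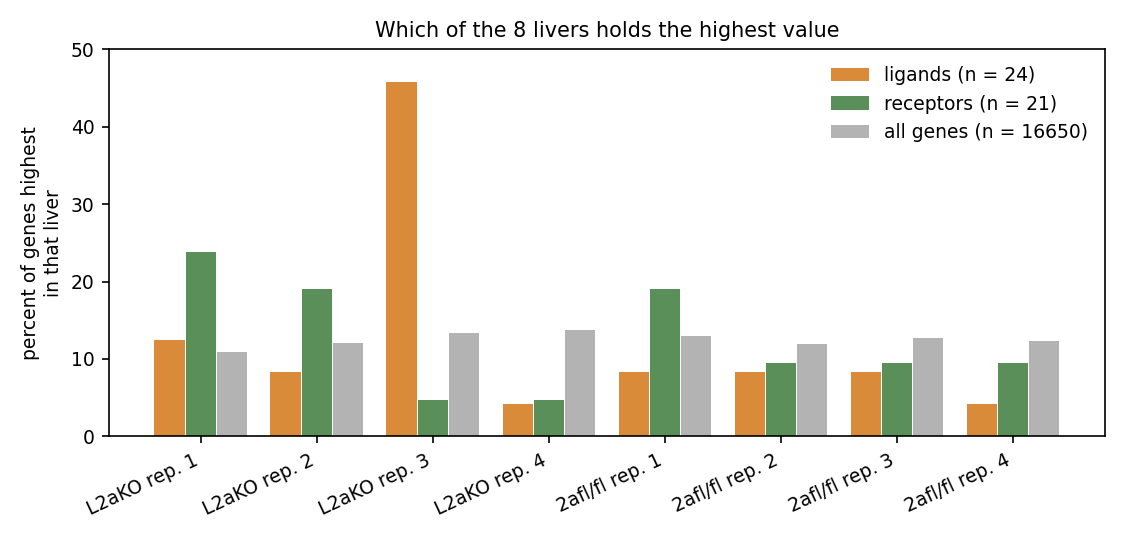
Percent of genes (y axis, from 0) whose highest value over the 8 livers lay in the liver named on the x axis, for 24 ligands, 21 receptors and all 16650 genes. *L2aKO* replicate 3 holds 45.8% of the ligand maxima and 4.76% of the receptor maxima, against 13.4% for all genes.

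That liver stood apart for ligands. *L2aKO* replicate 3 had the highest value of 11 of 24 ligands, namely *Ccl2*, *Ccl6*, *Ccl7*, *Ccl9*, *Ccl22*, *Ccl25*, *Cxcl5*, *Cxcl10*, *Cxcl14*, *Cxcl16* and *Cxcl17*, but of 1 of 21 receptors, *Cxcr4*. Over all genes it held 13.4% of the maxima, within the 10.9 to 13.7% of the 8 livers. Its median deviation from the *2afl/fl* mean was 0.33 on the log2 scale over ligands and 0.05 over receptors, whereas *L2aKO* replicate 1 had -0.04 over ligands and 0.30 over receptors. The summed monocyte and recruited macrophage markers were also highest in *L2aKO* replicate 3 (2061), with 1655, 1717 and 1688 in the other *L2aKO* livers and at most 1693 in *2afl/fl*. The largest terms of this sum were *Spp1*, also listed as a bile duct marker, and *Cd9*, neither called. *Spp1* had 624.6, 646.1, 759.2 and 756.3 normalized reads in *L2aKO* livers, against 798.8, 636.5, 583.4 and 673.2 in *2afl/fl* livers. *Cd9* had 508.0, 549.4, 572.7 and 432.0, against 445.7, 498.2, 395.0 and 473.7. Markers also highest in *L2aKO* replicate 3 were *Gpnmb* (71.35, at most 13.08 elsewhere), *Lgals3* (175.1, at most 93.84) and *Cd68* (157.9, at most 123.7). So were *Itgam*, *Clec4n*, *Cd300lb* and *Trem2*. *Ly6c2*, *C5ar1* and *Ms4a6b* were highest in *L2aKO* replicate 1, *Spn* and *Fcgr1* in *L2aKO* replicate 2 and *Spp1* in *2afl/fl* replicate 1. Without *L2aKO* replicate 3 the ligand median was -0.04 and the receptor median 0.11. The part of monocytes and macrophages in the ligand values was not tested.

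Among signaling receptors 2 of 17 were called, both with means under 10 normalized reads. Over all genes with such a mean 110 of 2438 were called, and over all 16650 genes 349 were (2.10%). *Cxcr5* (chr9:44511787-44526444, minus strand), the CXCL13 receptor of B cells and follicular helper T cells, had 10.9, 11.5, 9.51 and 13.01 normalized reads in *L2aKO* livers, against 8.51, 7.45, 3.41 and 4.79 in *2afl/fl* livers. Every *L2aKO* liver was above every *2afl/fl* liver, on 10 to 14 reads in *L2aKO* and 3 to 8 in *2afl/fl*. Means of 11.2 ± 1.45 and 6.04 ± 2.35 gave 0.85 (SE 0.35, limma p = 0.0299, adjusted p = 0.9997, exact permutation p = 0.0286, the smallest that 70 divisions allow). The call was lost in 5 of 8 fits with 1 liver left out, those without *L2aKO* replicate 1, 2 or 4 or *2afl/fl* replicate 3 or 4, with fold changes of 0.65 to 1.02 over the 8. *Cxcr5* shares 110 exon bases with *Bcl9l* on the opposite strand, a far more abundant gene with 2456 ± 220 normalized reads in *L2aKO* and 2225 ± 93.6 in *2afl/fl* livers (0.14, SE 0.07), and the part of its reads in *Cxcr5* was not tested.

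*Ccr7* (chr11:99144199-99155077, minus strand) guides dendritic cells and naive T cells to lymph nodes. It had 13.1, 7.37, 6.66 and 10.2 normalized reads in *L2aKO* livers, against 2.13, 1.06, 10.2 and 4.79 in *2afl/fl* livers. The overlap came from *2afl/fl* replicate 3, since the other *2afl/fl* livers lay below every *L2aKO* liver. Means of 9.33 ± 2.93 and 4.55 ± 4.09 gave 1.15 (SE 0.51, limma p = 0.0445, adjusted p = 0.9997, exact permutation p = 0.114). The call held without *L2aKO* replicate 3 or *2afl/fl* replicate 3 or 4 and was lost without any other liver (0.77 to 1.58), and it was also lost with plain eBayes, library weights and the replicate block.

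Lymphocyte and dendritic cell markers stood beside these receptors as follows. All 8 B cell markers measured had fold changes above 0, 1 was called (*Ms4a1*, CD20, 0.88, SE 0.38), and their sum was 256 to 315 normalized reads in *L2aKO* and 206 to 256 in *2afl/fl* livers. Of 9 T cell markers 5 were above 0 with none called by limma or at an unadjusted p under 0.05, and the sums were 164 to 239 and 158 to 215 (*L2aKO* first). Of 10 dendritic cell markers 6 were above 0 and 2 were called, *Batf3* and *Cd83*, with sums of 595 to 642 in *L2aKO* and 570 to 673 in *2afl/fl* livers. *Batf3*, a transcription factor of cross-presenting dendritic cells, had 25.1, 22.9, 18.1 and 20.4 normalized reads in *L2aKO* and 8.51, 1.06, 10.2 and 6.71 in *2afl/fl* livers, without overlap. *Clec9a*, another dendritic cell marker, gave 0.01 (SE 0.11). The markers below 0 were *Fscn1* (-0.30), *Ccl22* (-0.18), *Zbtb46* (-0.12) and *Siglech* (-0.10). Over all genes 50.1% were above 0 and 2.10% were called. *Ighm*, *Ighd*, *Trac*, *Trbc1* and *Trbc2* were on the lists but had no entry under these symbols among the 16650 genes. The part of these cells in the *Ccr7* and *Cxcr5* values was not tested.

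The abundant signaling receptors did not separate the genotypes. *Cxcr2*, the receptor of the neutrophil attractants, had 460, 556, 518 and 459 normalized reads in *L2aKO* and 487, 487, 500 and 532 in *2afl/fl* livers. Its log2 fold change was -0.01 (SE 0.08), and *L2aKO* livers held both the highest and the lowest value. Per kb of exon it was the highest receptor, at 151 to 182 normalized reads per kb over the 8 livers, and the neutrophil markers *Csf3r* (20.3 to 24.4), *S100a8* (3.07 to 23.5) and *S100a9* (2.17 to 10.9) were lower on the same scale. Of 8 neutrophil markers measured 6 had fold changes above 0, *Camp* (-0.39, SE 0.52) and *Mmp9* (-0.28, SE 0.34) being below, and none was called by limma or had an unadjusted p under 0.05. Their sum was 112 to 133 normalized reads in *L2aKO* and 97.96 to 129 in *2afl/fl* livers. The markers without overlap were *Csf3r* (0.15, SE 0.13) and *S100a9* (0.70, SE 0.43), both higher in *L2aKO*. Over all genes 2.25% did not overlap, and 1.12% did so with *L2aKO* higher. The lowest *L2aKO* and highest *2afl/fl* values were 86.84 and 83.47 normalized reads for *Csf3r*. For *S100a9* they were only 3.275 and 3.193. *Cxcr6*, the CXCL16 receptor of liver-resident T and NKT cells, had 136, 122, 106 and 112 normalized reads in *L2aKO* and 121, 121, 95.3 and 107 in *2afl/fl* livers (0.10, SE 0.13).

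*Ccr2*, the CCL2 receptor of monocytes, had 92.7, 99.1, 72.3 and 60.4 normalized reads in *L2aKO* livers, against 69.1, 64.9, 84.0 and 60.4 in *2afl/fl* livers (0.20, SE 0.19, exact permutation p = 0.314). Its high *L2aKO* livers were replicates 1 and 2, in which *Ccl2* was low. *Cx3cr1*, the fractalkine receptor of patrolling monocytes, gave 0.27 (SE 0.21), *Xcr1*, of cross-presenting dendritic cells, 0.05 (SE 0.21), *Cxcr4*, the CXCL12 receptor, -0.03 (SE 0.40), and *Cxcr3*, of activated T and NK cells, -0.48 (SE 0.34). *Ccr9* gave 0.09 (SE 0.15), with 1932 exon bases shared with *AC165425.1* on the opposite strand. *Ccr1* (-0.37, SE 0.42), *Ccr4* (0.22, SE 0.82), *Ccr6* (0.03, SE 0.50) and *Ccr10* (-0.08, SE 0.33) were not called either.

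A pair of rare receptors missed the criterion, each with reads in a single *2afl/fl* liver, and they are described because of these values. *Ccr3*, the eosinophil receptor, had 2, 4, 3 and 2 reads in *L2aKO* livers, against 4, 0, 0 and 0 in *2afl/fl* livers, and *Ccr1l1*, a *Ccr1*-like gene, had 2, 2, 3 and 3, against 0, 0, 3 and 0. Both were found in every *L2aKO* liver and in 1 *2afl/fl* liver, a different one for each gene. Their log2 fold changes were 1.21 (SE 0.64, limma p = 0.0837) and 1.20 (SE 0.62, limma p = 0.0766), with an exact permutation p of 0.143 for each. At 0 to 4 reads a liver these differences are at the limit of the depth.

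Of the 4 atypical receptors none was called by limma or had an unadjusted p under 0.05, and 3 had fold changes below 0. *Ackr4*, which clears CCL19, CCL21 and CCL25, had 380, 332, 314 and 281 normalized reads in *L2aKO* livers, against 315, 412, 370 and 417 in *2afl/fl* livers (-0.21, SE 0.12, exact permutation p = 0.171). *L2aKO* replicates 1 and 2 lay within the *2afl/fl* range. *Ackr2*, a scavenger of inflammatory CC ligands, had 174, 117, 98.9 and 78.0 in *L2aKO* and 111, 193, 107 and 111 in *2afl/fl* livers (-0.17, SE 0.26), with 1 high liver in each genotype. *Ackr1*, the endothelial and red cell receptor of many ligands, gave -0.34 (SE 0.23), with 114 exon bases shared with *Cadm3* on its own strand, and *Ackr3*, a CXCL12 scavenger, 0.11 (SE 0.22).

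**Figure D4:**
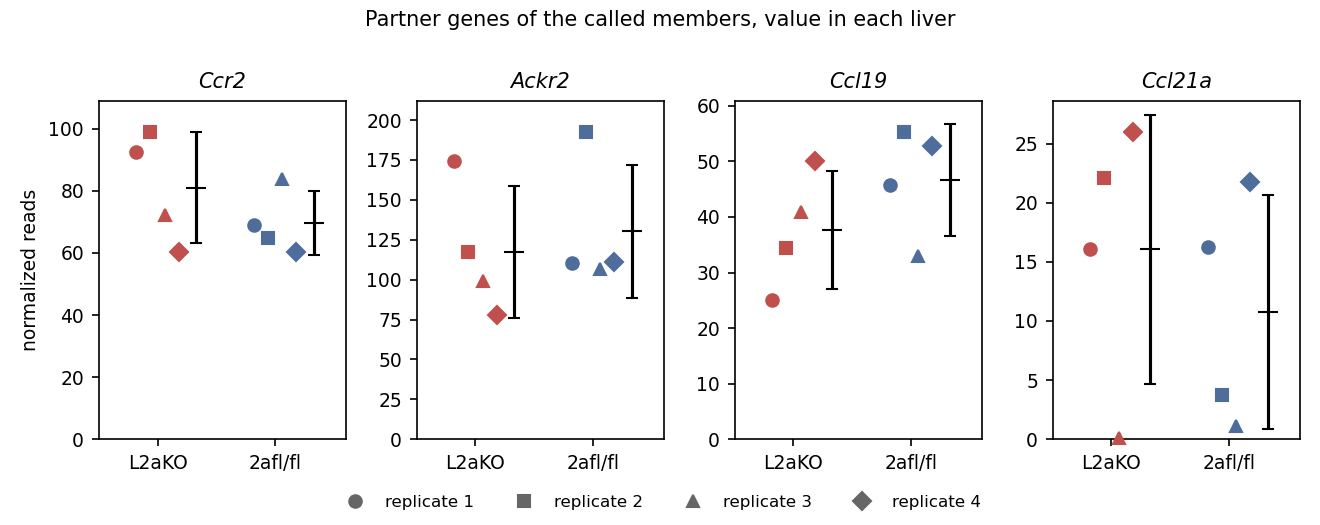
Normalized reads (y axis, from 0) in each liver of CCL2 receptors (*Ccr2* and *Ackr2*) and CCR7 ligands (*Ccl19* and *Ccl21a*) from the pairs described below. *L2aKO* is in red left of *2afl/fl* in blue, with the mean ± SD (n = 4) in black. The genotypes overlap in all 4 genes, with fold changes of 0.20, -0.17, -0.32 and 0.39 on the log2 scale.

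Ligands were then set beside their receptors. In 32 known pairs with both genes measured, which share genes with one another, ligand and receptor had fold changes of the same sign in 14. *Cxcl13* and *Cxcr5* formed the only one of these pairs with both genes called. *Cxcl13* was high in *L2aKO* replicates 1 and 2. *Cxcr5* had 10, 14, 10 and 14 reads in *L2aKO* replicates 1 to 4, too close to name a high liver. *Ccl2* was called without *Ccr2* or *Ackr2*, and *Ccr7* without *Ccl19* or *Ccl21a*. *Ackr1*, the receptor of many ligands, was in none of the pairs.

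Levels between genes were compared per kb of merged GENCODE exons. For some genes, *Cxcr5*, *Ccr9*, *Cx3cr1* and *Ackr4* among them, the GENCODE gene runs past the span given by the authors. Exon bases outside that span would lower the level per kb, by an amount not tested, so the order is approximate. Ligands ran from *Cxcl12* (mean 1256 normalized reads per kb, range over 8 livers 1031 to 1391) through *Ccl9* (307, 236 to 396), *Ccl27a* (127, 107 to 154) and *Cxcl1* (79.6, 62.4 to 116) to *Ccl22* (0 to 2.05). Neighbours in that order overlapped in range from *Ccl27a* downward, and *Cxcl12* and *Ccl9* each stood clear of the next. Among receptors *Cxcr2* (164) stood clear of *Ackr4* (65.6, 52.2 to 77.5), and from *Ackr4* and *Cxcr6* (59.7, 49.4 to 70.6) down to *Ccr4* (0.452) neighbours overlapped. Of the called genes *Cxcl13* ranked 11 of 24 ligands (17.4 per kb) and *Ccl2* 17 (5.80), and *Ccr7* ranked 15 of 21 receptors (3.51) and *Cxcr5* 16 (2.59). Of the 45 genes 37 were above 0 in all 8 livers.

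**Figure D5:**
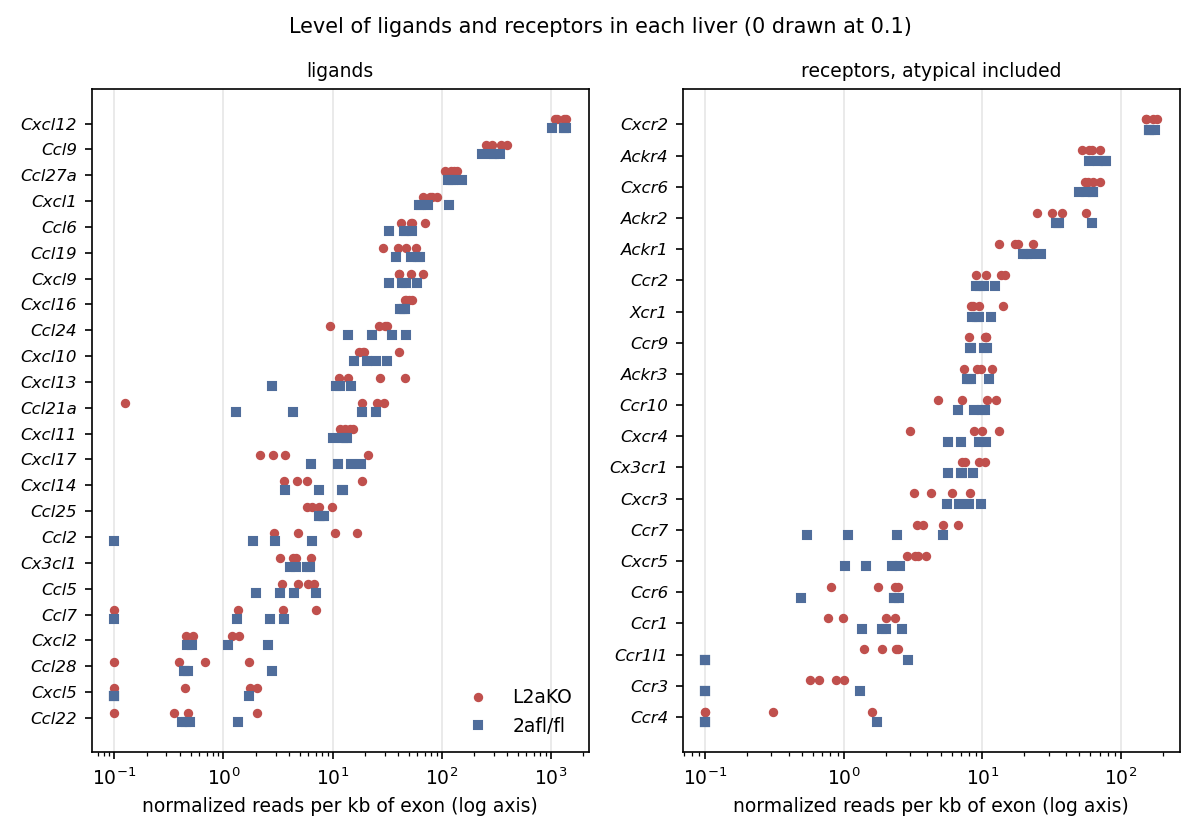
Normalized reads per kb of exon (log x axis, 0 drawn at 0.1) of each ligand (left) and 20 of the 21 receptors (right) in each liver, *L2aKO* as red circles above *2afl/fl* as blue squares, ordered by mean. The highest genes, *Cxcl12* (mean 1256) and *Cxcr2* (mean 164), have tight points of both genotypes, and the points spread as the level falls.

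The surrounding pathway was read from 3 lists chosen for their role. Of 56 genes of chemokine receptor signaling (G protein subunits, arrestins, kinases, Rac and Rap1 control, integrins) 1 was called, where 2.10% of all genes were. The median log2 fold change was 0.07 beside 0.00 over all genes. The called gene was *Rapgef4*, a cyclic AMP-driven activator of Rap1 that also serves other receptors, with 4671, 4085, 4460 and 3715 normalized reads in *L2aKO* livers, against 2361, 2487, 3289 and 3425 in *2afl/fl* livers (0.56, SE 0.13, limma p = 0.00184, adjusted p = 0.9997, exact permutation p = 0.0286). The genotypes of *Rapgef4* did not overlap. *Arrb1*, which encodes an arrestin that ends receptor signaling (0.18, SE 0.07), and *Itgal*, an integrin chain that receptor signaling activates (0.24, SE 0.10), were at an unadjusted p of 0.0195 and 0.0387 but under the fold limit.

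Of 11 chemokine and chemokine-binding genes under other symbols none was called by limma or had an unadjusted p under 0.05. *Ppbp*, which encodes the platelet ligand CXCL7 of CXCR2, came nearest at 0.85 (SE 0.39, limma p = 0.0503, exact permutation p = 0.0286), with 6.54, 12.3, 7.61 and 6.50 normalized reads in *L2aKO* livers, against 6.38, 4.26, 2.27 and 3.84 in *2afl/fl* livers, just without overlap. Of 7 platelet markers 5 were above 0, *Ppbp* itself among them, against 50.1% of all genes. The 1 called was *Tubb1*, lower, where 2.10% of all genes were called and 0.781% were called lower. With *Ppbp* on the list, this count is not independent of it. Of 19 inducers of chemokine genes measured none was called by limma or had an unadjusted p under 0.05 (median 0.06). Of these 19, 15 were above 0, against 50.1% of all genes. They included *Tnf* (0.16, SE 0.83), *Il1b* (0.29, SE 0.30), *Nfkb1* (0.02, SE 0.06) and *Rela* (-0.01, SE 0.08), cytokines and NF-κB subunits that act on many of these genes. The listed *Ifng*, *Il4*, *Il6*, *Il13*, *Il17a* and *Lta* had no entry among the 16650 genes.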

How the data were processed

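Per the labels, the livers came from 4 *L2aKO* and 4 *2afl/fl* mice on a NASH diet. Per the study's methods, mice were perfused before the liver was removed, and total liver RNA was isolated for sequencing. The authors used Partek Flow 10, mapped reads to mm10 with STAR 2.7.8a and deposited a normalized signal scaled by DESeq2, in part fractional, for 16650 genes. The gene annotation, strand setting and gene filter are not given in the sources used here. Of values above 0 and under 100 reads of the 45 genes, 94.3% lay within 0.02 of a whole read (88.6 to 89.2% over all genes), so a count model was not the main test.

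A minimum mean of 1 removed no gene (smallest mean 1.08). limma 3.58.1 in R 4.3.3 (lmFit, eBayes with trend and robust, two-sided, no covariates) was run on log2 of the value plus a pseudocount of 1, with Benjamini-Hochberg adjustment across the whole table. The study's p and fold criterion was kept, and limma took the place of a count model because the values are normalized and in part fractional. The step was tested on simulated data in which only genes with a mean of at least 10 were changed. That test does not cover the called genes below this mean. An exact two-sided permutation test over 70 divisions, whose smallest p is 0.0286, was added for single genes. Genes were named if called, if their genotypes did not overlap, if among the 5 highest ligands or receptors by mean, if partners of called genes, or if shown by the study (*Ccl2* and *Cxcl13*). Of the 21 receptors, 1 counts in the totals but is not reported here on its own. The members, lists and tests were chosen with earlier results of these data known. Exon lengths and overlaps are from GENCODE M21. Alternatives changed the pseudocount, filter, scaling, eBayes settings, library weights, voom, replicate block and fold limit, and left out each liver.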

Additional observations from a re-analysis of the deposited data

Results flagged for a closer look

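Among 16 named chemokine genes and *Mfsd2a*, 34 sets of 4 livers were examined for a liver far from the other 3 (its gap to the nearest over the whole range above Dixon's 95% value for 4 samples), which chance alone gives in about 1 of 20 sets, and 3 were found. *Ackr2* in *2afl/fl* replicate 2 was 192.7 normalized reads, where the other *2afl/fl* livers had 106.7 to 111.2. *Cxcl12* in *2afl/fl* replicate 1 was 8426 normalized reads, where the others had 10888 to 11287. *Mfsd2a* in *2afl/fl* replicate 2 was 1569 normalized reads, where the others had 299.6 to 513.0.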

How the results depend on the processing

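Over all genes 349 were called, 229 with a mean of at least 10 and 581 with no fold limit. Quantile normalization gave 167 higher and 169 lower calls in place of 219 and 130. Of the 45 genes 4 were called: 1 with a mean of at least 10 (*Cxcl13*), and 2 each under quantile normalization (*Ccr7*, *Cxcr5*), plain eBayes (*Ccr1l1*, *Cxcr5*), library weights and the replicate block (both *Cxcl13*, *Cxcr5*). Ligand calls, 2 at first, were 1 with a pseudocount of 0.5, a mean of at least 10, library weights, limma voom or the replicate block, and 0 under quantile normalization and plain eBayes. Receptor calls, 2 at first, were 0 with a mean of at least 10, 1 with library weights or the replicate block and 4 under limma voom. Calls in the 3 pathway lists, 1 at first, were 2 with a pseudocount of 4, upper-quartile scaling, plain eBayes or library weights and 3 with no fold limit. *Mfsd2a* passed under limma voom (1.02). With each liver left out in turn the calls ranged from 299 to 427 over all genes, from 0 to 4 over the 45, from 0 to 2 for ligands, from 0 to 2 for receptors and from 1 to 4 in the lists, and *Mfsd2a* from 0.69 to 1.49, called without *2afl/fl* replicate 2. The sign turned in some of these fits for uncalled genes: *Ackr2* (-0.38 to 0.034), *Ccl21a* (-0.24 to 1.47), *Ccl27a* (-0.11 to 0.028), *Cxcl1* (-0.078 to 0.22), *Cxcl9* (-0.014 to 0.27), *Cxcl12* (-0.12 to 0.028) and *Cxcr2* (-0.067 to 0.025). The cause was not tested, apart from the smaller number of genes or livers where the setting itself removes them. Livers of one replicate number share only that number (correlations of deviations -0.119 to 0.061), and the replicate block gave 359 calls over all genes and 2 over the 45. Depth limits the 15 genes with a mean under 10, where a few reads carry a call.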
